A study of Mus musculus with 12 samples.

Results

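The circular RNAs (circRNAs) of Gramd1c were examined in mouse liver. Such an RNA is a closed loop made by back-splicing, in which an exon end joins an exon start that lies upstream of it, and it is counted from reads across that back-splice junction. Rows of the deposited junction table were taken as Gramd1c circRNAs when they lay inside the gene in the GENCODE M21 annotation and had at least 1 end on an exon boundary of it. This gave 10 of 16445 junctions, all with both ends on Gramd1c exon boundaries and none with another possible host. A junction is in the table when it was above 0 in at least 1 library, so the 10 members were selected on detection, and their presence is not a finding. Gramd1c itself was chosen by its circRNA values in these libraries, and its high level is given as a description, with no test.

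Livers of 12 mice were compared, 6 per group, with the strain written as C57BL/8 in the labels. All 12 mice received carbon tetrachloride (CCl4), which injures hepatocytes and leads to scarring of the liver, 2 times a week for 8 weeks (10% CCl4, 10 µl per 10 g of body weight). The 6 Control mice had CCl4 only. The 6 PZH mice also had PZH (Pien Tze Huang, a formula of Chinese medicine) every day from week 2 to week 8 at 25 mg/ml. No liver without CCl4 was analysed here, and neither sex nor age of the mice is stated in the labels used here. In whole liver, fewer cells of a type and less RNA per cell cannot be told apart.

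Gramd1c encodes a member of the GRAMD1 (Aster) family of proteins of the endoplasmic reticulum. These proteins carry a GRAM domain, which binds membrane lipids, followed by a sterol-binding domain and a membrane anchor, and they move cholesterol from the plasma membrane to the endoplasmic reticulum where the membranes touch. Hepatocytes take up, make and export much of the body's cholesterol.

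The gene lies on the minus strand of chromosome 16 from 43980350 to 44063345 (GRCm38, ENSMUSG00000036292.14), with 6 annotated transcripts. Exon numbers below are those of the longest, Gramd1c-204, which has 18 exons. The most abundant junction joined the end of exon 6 to the start of exon 3, chr16:44028679-44040158. The 4 exons between these ends have 366 bases, all coding, and are shown because this circle held most of the gene's signal (GENCODE M21 transcript sequence, GRCm38, minus strand, 5′ to 3′):
Exon 3: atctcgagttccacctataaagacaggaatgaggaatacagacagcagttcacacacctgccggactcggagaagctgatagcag
Exon 4: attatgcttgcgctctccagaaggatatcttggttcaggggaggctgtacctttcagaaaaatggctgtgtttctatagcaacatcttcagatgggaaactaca
Exon 5: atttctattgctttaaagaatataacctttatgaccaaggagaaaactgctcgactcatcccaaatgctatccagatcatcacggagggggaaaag
Exon 6: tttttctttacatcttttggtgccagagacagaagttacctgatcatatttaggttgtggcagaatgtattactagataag

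Only the junction was measured, so which exons the circle holds is not known. The back-splice junctions of the 4 most abundant Gramd1c circRNAs are shown next, 30 bases to each side, so that the shared ends can be read. Lower case is the end of the last exon and capitals are the start of the earlier exon to which it is joined:
Exon 6 joined back to exon 3: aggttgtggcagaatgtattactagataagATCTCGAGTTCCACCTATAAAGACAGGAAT
Exon 10 joined back to exon 3: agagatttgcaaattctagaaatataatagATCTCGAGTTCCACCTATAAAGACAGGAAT
Exon 6 joined back to exon 4: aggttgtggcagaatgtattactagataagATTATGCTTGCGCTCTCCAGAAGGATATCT
Exon 9 joined back to exon 3: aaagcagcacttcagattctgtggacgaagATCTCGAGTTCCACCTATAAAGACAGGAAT

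For comparison, the forward junctions of the linear transcript at the same exon ends are as follows, with capitals for the downstream exon:
Exon 2 joined to exon 3: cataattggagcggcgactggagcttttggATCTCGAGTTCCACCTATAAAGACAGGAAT
Exon 6 joined to exon 7: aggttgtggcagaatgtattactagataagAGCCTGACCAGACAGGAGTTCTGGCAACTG

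The capitals of the exons 3 to 6, 3 to 10 and 3 to 9 circRNAs are the same 30 bases, the start of exon 3. The lower-case part of the exons 3 to 6 circRNA is that of the exons 4 to 6 circRNA, the end of exon 6. The 10 junctions drew on 5 start exons (2, 3, 4, 7 and 8) and 4 end exons (6, 7, 9 and 10). Exon 3 was the start of 4 junctions that held 97.97% of Gramd1c SRPBM over the 12 libraries. SRPBM, the unit named by the authors' table, is by its name a number of spliced reads relative to mapped reads. How it was computed here was not found. Exon 6 was the end of 2 junctions with 82.3% of the signal, exon 10 of 4 with 16.2% and exon 9 of 3 with 1.48%. No junction ended beyond exon 10, so none reached the last 8 exons.

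**Figure D1:**
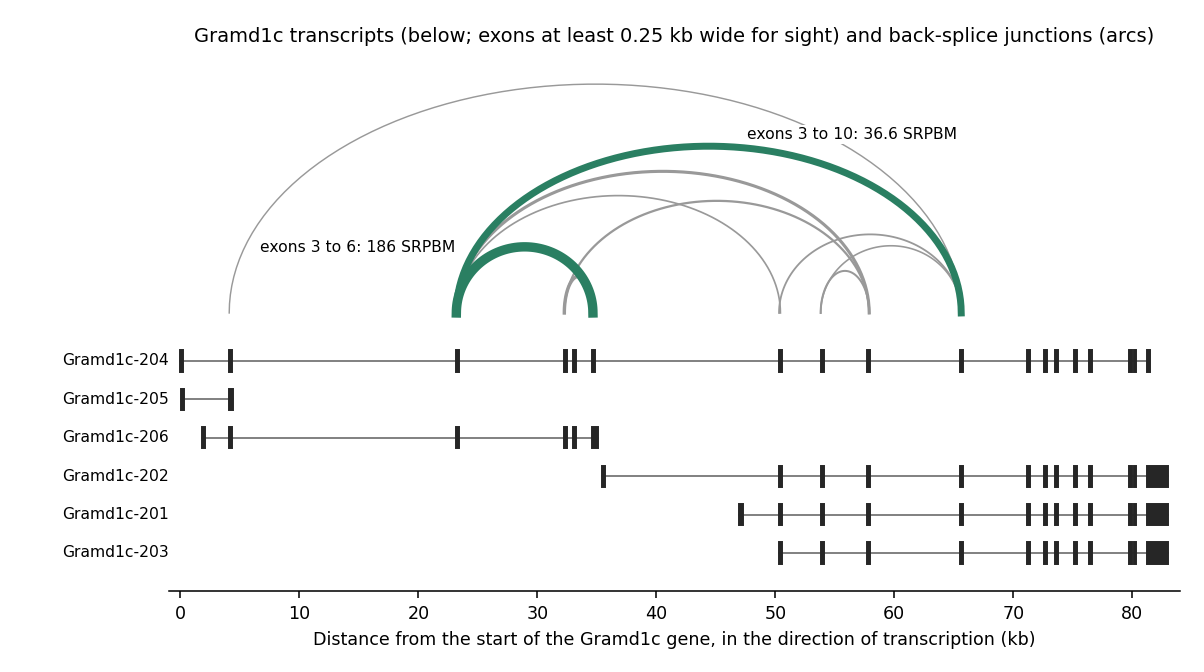
Gramd1c transcripts of GENCODE M21 (lower rows, boxes are exons) and the 10 back-splice junctions (arcs, thicker for a higher mean over 12 libraries), against distance from the gene's start in kb. The 2 green arcs, exons 3 to 6 (186 SRPBM) and exons 3 to 10 (36.6 SRPBM), share their start, and the exons 3 to 6 arc ends before the starts of Gramd1c-201, Gramd1c-202 and Gramd1c-203.

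The exons 3 to 6 circle lies in the part of the gene that only the long transcripts hold. Exons 3, 4 and 5 belong to Gramd1c-204 and to the noncoding Gramd1c-206, and exon 6 with these exact ends to Gramd1c-204 alone. The other 3 coding transcripts start downstream of the circle, Gramd1c-202 closest, 734 bp past its end at 44027945. Their coding sequence of 1371 bases begins in exon 7, against 1986 bases in Gramd1c-204. RefSeq (GRCm38.p6) has a further start at 44042008, which is 1850 bp upstream of exon 3. Exons 3 to 6 correspond to codons 59 to 180 of the 662 of Gramd1c-204. Their length is a multiple of 3, so the annotated frame, which has no stop in these exons, runs on across the back-splice junction. It holds 1 in-frame ATG. The other 2 frames of the closed sequence hold 7 and 5 stop codons. This is a property of the sequence, and translation was not measured. The exons between the ends of the exons 3 to 10 circRNA sum to 916 bases, which is not a multiple of 3.

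The introns on either side of the exons 3 to 6 circle were the longest and second longest of the 17 introns of Gramd1c-204, at 18943 and 15641 bp, against a median of 3303 bp. Exons 3 to 10 form a circRNA that spans 42433 bp (chr16:43997726-44040158) with the same 18943 bp intron before it and 5548 bp after it. Its span was the 875th longest of 16445. The exons 3 to 6 circRNA spans 11480 bp, against a median of 6251 bp over all junctions.

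Gramd1c was among the strongest sources of circRNA in these livers. Its 10 junctions summed to a mean of 230 SRPBM over the 12 libraries, rank 14 of 4728 host genes, and its exons 3 to 6 circRNA ranked 12th of 16445 junctions with a mean of 186 SRPBM. Its coefficient of variation over the 12 libraries was 20.6%, the 151st lowest of 1089 circRNAs above 0 in all libraries (median 32.8%). Most of these were weaker circRNAs, and no comparison at like level was made. Junction values do not scale with transcript length, so genes were compared on SRPBM directly. Among the 346 host genes with at least 10 junctions, the top junction held a median of 44.9% of the gene's signal. For Gramd1c it held 81.0%, and 27 of the 346 had a larger share.

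In the Control livers 1 to 6, the exons 3 to 6 circRNA was at 162, 166, 182, 165, 114 and 169 SRPBM. In the PZH livers 1 to 6 it was at 212, 255, 185, 192, 186 and 248 SRPBM. The groups did not overlap: the lowest PZH liver lay just above the highest Control liver, and Control 5 lay far below the rest. The means were 213 ± 31.4 SRPBM in the PZH group and 160 ± 23.7 in the Control group (SD, n = 6 each). The gap between PZH 3 and Control 3, the closest livers of the 2 groups, was 2.69 SRPBM. A read-pair equivalent is a value in units of 1 read pair, when the smallest value of a library is taken as 2 read pairs. Not all values are whole numbers in this unit (9.33 for exons 3 to 7 in PZH 2). Read-pair equivalents and counting errors from them are therefore approximate. At 576 and 582 read-pair equivalents, the counting error of these 2 values alone is about 7.71 and 7.56 SRPBM (Poisson SD), larger than the gap. All 6 PZH libraries were above all 6 Control libraries for 0.491% of the 3870 circRNAs tested.

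On the log2(SRPBM + 0.636) scale the difference of the exons 3 to 6 circRNA was 0.42 (SE 0.12, 95% interval 0.17 to 0.66), a 1.33-fold higher level with PZH. It did not pass the adjusted threshold of 0.05 in limma over all 3870 circRNAs (unadjusted p = 0.00211, adjusted p = 0.388), where it had the 21st smallest p. With quantile normalization the difference was 0.24 (adjusted p = 0.579 in limma). With rows mostly at 0 also entered, which gives 16445 rows, its adjusted p in limma was 3.56e-13. The variance trend was then fitted across those rows too, and its part in this value was not tested.

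**Figure D2:**
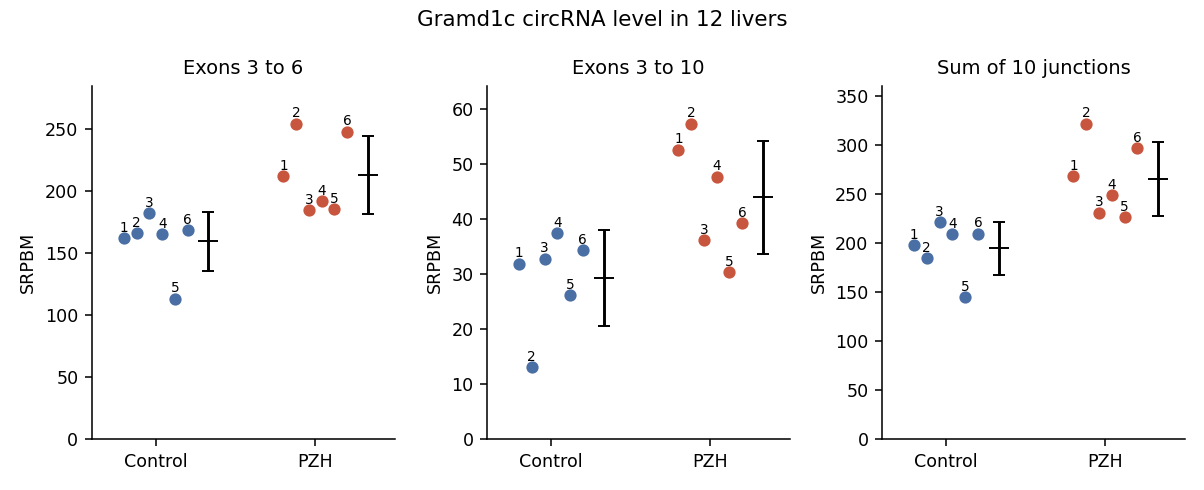
SRPBM of the exons 3 to 6 circRNA, the exons 3 to 10 circRNA and the sum of the 10 Gramd1c junctions in each Control (blue) and PZH (red) liver, with replicate numbers and mean ± SD at the side. PZH and Control values do not overlap for exons 3 to 6 and for the sum, while those of exons 3 to 10 overlap.

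The second circle, exons 3 to 10, had levels of 31.9, 13.1, 32.8, 37.4, 26.1 and 34.4 SRPBM in the Control livers 1 to 6. In the PZH livers 1 to 6 it was at 52.6, 57.3, 36.2, 47.7, 30.4 and 39.3 SRPBM. The PZH values were mostly the higher ones, and 4 of 6 exceeded every Control value, with PZH 3 and PZH 5 inside the Control range. The mean was 43.9 ± 10.3 SRPBM in the PZH group and 29.3 ± 8.76 in the Control group (SD, n = 6 each). The log2 difference was 0.61 (SE 0.23, 95% interval 0.14 to 1.08), which did not pass (limma unadjusted p = 0.0132, adjusted p = 0.551). Control 2, the library with the fewest read-pair equivalents (80442), was the lowest, and the part of depth in this was not tested. Without it the log2 difference was 0.40 (adjusted p = 0.603 in limma). The exons 3 to 10 circRNA ranked 136th of 16445 junctions by mean level.

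The other 8 junctions were low, at most 7.67 SRPBM in any library, and 3 of them were above 0 in at least 6 libraries and so were tested. Exons 4 to 6 form a circRNA that starts 1 exon later than the main circle. It was at 2.72, 4.48, 1.93, 1.94, 7.67 and 3.91 SRPBM in the PZH livers 1 to 6. In the Control livers 1 to 6 it was at 0.633, 4.95, 3.14, 0, 2.04 and 0 SRPBM. It was thus above 0 in every PZH library and in 4 of 6 Control libraries, with ranges that overlap. A circRNA of exons 3 to 9 was above 0 in 5 PZH libraries (1.02 to 5.66 SRPBM) and 4 Control libraries (1.91 to 3.65 SRPBM). Exons 4 to 9 gave a circRNA in 4 PZH and 2 Control libraries, at 3.05 SRPBM or less. In limma the log2 differences of these 3 circRNAs were 1.20 (SE 0.66), 0.30 (SE 0.72) and 0.35 (SE 0.56). Their adjusted p of 0.686, 0.949 and 0.920 did not pass, and each 95% interval held 0.

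A further 5 junctions were above 0 in 1 to 3 libraries and were not tested. Exons 8 to 9 had 3.82, 1.54 and 0.999 SRPBM in PZH 4, 5 and 6 and were listed at 0 in the Control libraries. Exons 3 to 7 appeared in PZH 2 alone, at 2.85 SRPBM. In Control, the exons 7 to 10 circRNA had 2.33 and 1.77 SRPBM in Control 4 and 6 and that of exons 8 to 10 had 2.17 SRPBM in Control 6. That of exons 2 to 10, with the longest span of the 10 at 61523 bp, was at 0.667 SRPBM in PZH 6, about 2.00 read-pair equivalents. A value of 0 in this table means listed at 0, not absent. Together the 8 low junctions summed to 3.64 to 10.8 SRPBM in PZH (mean 8.59 ± 2.51) and 3.69 to 6.57 in Control (5.41 ± 1.08, SD, n = 6 each). Of the PZH libraries 5 of 6 lay above every Control library, and PZH 1 was below all of them. This grouping was made after the values were seen, so no test is given for it.

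**Figure D3:**
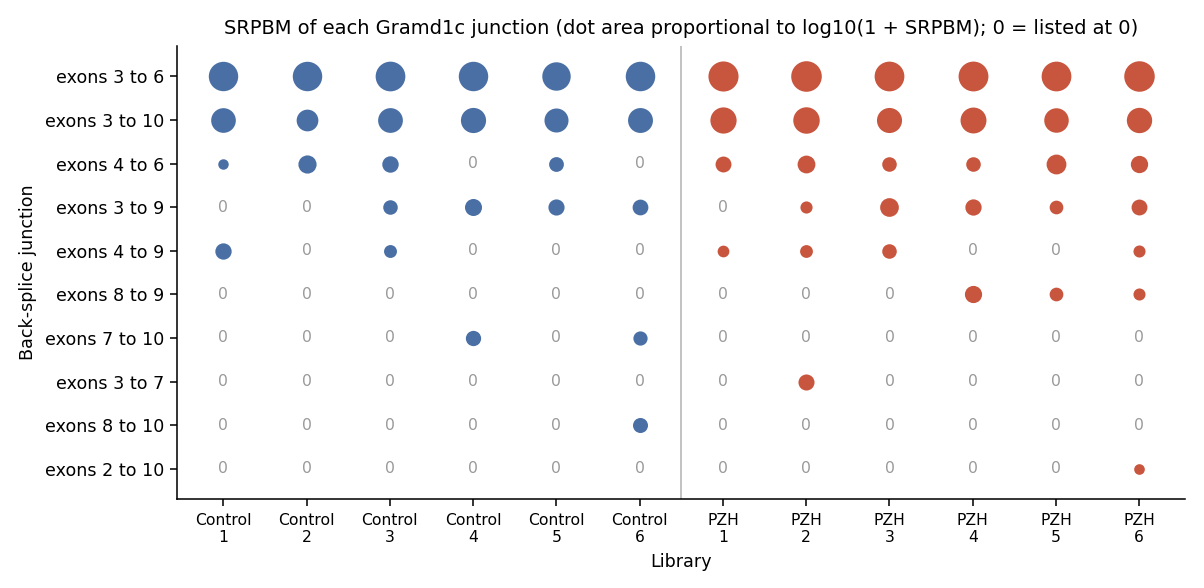
SRPBM of each of the 10 Gramd1c junctions (rows) in the 6 Control (blue) and 6 PZH (red) libraries (columns), with dot area proportional to log10(1 + SRPBM) and 0 where a junction was listed at 0. The top 2 rows are filled in all 12 libraries, and the lowest 5 rows in at most 3.

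Summed over its 10 junctions, Gramd1c was at 268, 321, 231, 249, 227 and 297 SRPBM in the PZH livers 1 to 6. In the Control livers 1 to 6 the sum was 198, 184, 222, 209, 145 and 210 SRPBM. Every PZH liver again lay above every Control liver, with PZH 5 and Control 3 the closest. The mean was 265 ± 37.7 SRPBM in the PZH group and 194 ± 27.4 in the Control group (SD, n = 6 each). The log2 difference was 0.45 (SE 0.12, 95% interval 0.20 to 0.69), a 1.37-fold higher sum. It was the 8th smallest p of 2203 host genes but did not pass (limma unadjusted p = 0.00102, adjusted p = 0.263). No host gene passed (0% of 2203 in limma, and 0 in the exact rank-sum test), with 181 at an unadjusted p under 0.05 in limma. With as few host genes at its smallest possible p as here, the rank-sum test could pass none. The sum of Gramd1c had the smallest p possible with 6 libraries per group (exact rank-sum p = 0.00216), and its adjusted p was 0.251. Non-overlapping groups with PZH higher were seen for 0.545% of the host genes, and sums higher at an unadjusted p under 0.05 for 5.08% and lower for 3.13%.

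Of the 5 Gramd1c circRNAs tested, 0 passed in limma, where 0.0517% of all circRNAs tested did, and 0 in the exact rank-sum test. That of exons 3 to 6 had the smallest p possible in the latter (exact rank-sum p = 0.00216, adjusted p = 0.322). With as few circRNAs at that p as here, the rank-sum test could pass none. At an unadjusted p under 0.05, 2 of the 5 were higher with PZH in limma, and 2 in the exact rank-sum test. Over all circRNAs tested 4.55% were so in limma, and 3.00% were lower. In the exact rank-sum test 162 of all 3870 were higher at that level and 104 lower. In limma the count of 2 rests on the variance trend, with which limma takes the expected spread of a circRNA from its level. Without the trend, 0 of the 5 were at that level in limma. The exact rank-sum test uses no such trend. That of exons 3 to 6 then had an SE of 0.25 (limma unadjusted p = 0.117, adjusted p = 0.740), and that of exons 3 to 10 a limma unadjusted p = 0.0761 (adjusted p = 0.701). With quantile normalization the exons 3 to 6 circRNA also missed that level (limma unadjusted p = 0.0558, adjusted p = 0.579). The 5 share exon ends and 1 primary transcript, so they are not independent. All 5 log2 differences were above 0, where 54.3% of all circRNAs tested were, with a median of 0.06. The signs of exons 3 to 9 and 4 to 9 turned when zeros were treated as missing, and that of exons 3 to 9 also without Control 1 or Control 2.

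**Figure D4:**
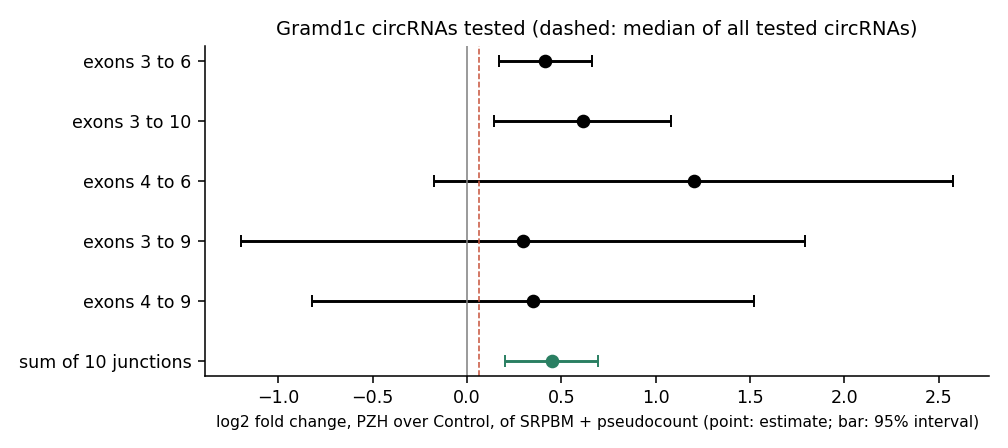
Log2 fold change, PZH over Control, with 95% interval from limma for the 5 Gramd1c circRNAs tested (black) and their gene's sum (green); the dashed line is the median of all circRNAs tested (0.06). Intervals of exons 3 to 6, exons 3 to 10 and the sum lie above 0, but none of the 6 values passed after adjustment.

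No difference in the make-up of Gramd1c circRNA was detected between PZH and Control. The exons 3 to 6 circRNA held 80.2 ± 2.26% of the sum in the PZH group against 82.1 ± 4.24% in the Control group (SD, n = 6 each; 2-sided exact permutation p = 0.400). That of exons 3 to 10 held 16.5 ± 2.82% and 15.1 ± 4.09% (exact permutation p = 0.558). Control 2 stood apart in both, with 90.2% on exons 3 to 6 and 7.09% on exons 3 to 10. Junctions starting at exon 3 held 95.9% to 98.6% of the sum in PZH and 97.3% to 98.9% in Control. Of 9 shares compared, by junction, start exon or end exon, none passed (Benjamini-Hochberg adjusted exact permutation p of 0.929 to 0.968). The number of junctions above 0 was 5.33 ± 1.03 per PZH library and 4.17 ± 0.753 per Control library (exact permutation p = 0.0996, n = 6 each). Per 1000 circRNAs above 0 in a library this difference was 0.19 (exact permutation p = 0.0390, n = 6 each). Over the 4 alternatives the exact permutation p was 0.0390 to 0.141, and without each library in turn 0.0433 to 0.199. The lowest of the latter was without PZH 1, where the difference in number was 1.43. The circRNAs of exons 3 to 6 and 3 to 10 were above 0 in every library, so the number varied only with the low junctions. Those are members through being above 0 in at least 1 library, some of them in libraries of 1 group alone. No difference in number is therefore read from these p-values.

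**Figure D5:**
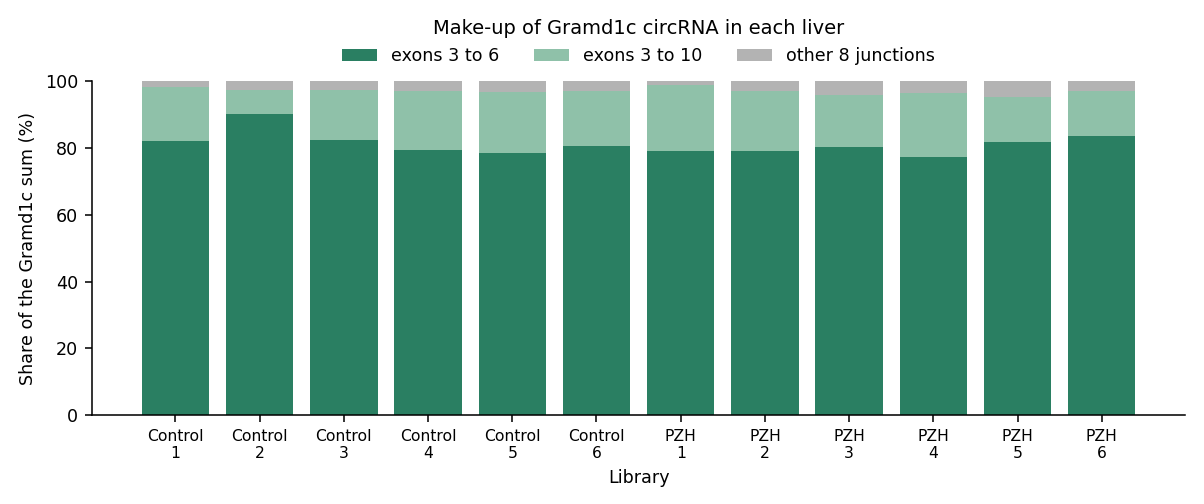
Share of the summed Gramd1c SRPBM held by exons 3 to 6 (dark green), exons 3 to 10 (light green) and the other 8 junctions (grey) in each library, in percent. Exons 3 to 6 hold 77.3% to 90.2% in every library, and Control 2 has the smallest exons 3 to 10 share at 7.09%.

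The total circRNA signal of the libraries ran from 28922 to 41080 SRPBM and from 80442 to 130487 read-pair equivalents, lowest in Control 2 and Control 6. Its mean was 36240 ± 3936 SRPBM in the PZH group and 35196 ± 4751 in the Control group (SD, n = 6 each). Gramd1c took 0.604% to 0.853% of the total signal in PZH (mean 0.735 ± 0.0883%) and 0.394% to 0.696% in Control (0.560 ± 0.103%, SD, n = 6 each), so the ranges overlapped on this scale (unadjusted exact permutation p = 0.0130). That p is for 1 gene chosen by its circRNA values in these libraries, so it is not read as a finding. Scaled by summed SRPBM and adjusted over all host genes tested, the log2 difference of the gene's sum was 0.40 and did not pass (adjusted p = 0.160 in limma). Across the 12 libraries, the log2 levels of the exons 3 to 6 and exons 3 to 10 circRNAs had a Pearson r of 0.57 (permutation p = 0.0637, adjusted p = 0.191 over 3 relations) and a Spearman rho of 0.75 (permutation p = 0.00692). Without Control 5 and PZH 2, the 2 libraries farthest from the median, r was 0.48. Within PZH r was 0.56 (exact permutation p = 0.251, n = 6) and within Control 0.11 (exact permutation p = 0.844, n = 6). The relation of the exons 3 to 6 circRNA to a library's summed SRPBM was weak, with r = 0.24 (permutation p = 0.463, adjusted p = 0.463) and rho = 0.24 (permutation p = 0.457). For the exons 3 to 10 circRNA r was 0.43 (permutation p = 0.163, adjusted p = 0.245) and rho 0.35 (permutation p = 0.266). Without Control 2 and Control 6 these r values were 0.15 and -0.08. Within PZH they were 0.60 and 0.07 (exact permutation p = 0.215 and 0.897), and within Control -0.07 and 0.62 (exact permutation p = 0.883 and 0.168, n = 6 each).

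Cell type marker genes were also examined, on lists made with earlier results of these data known. Of 14 hepatocyte marker genes 14 hosted circRNAs, and 6 had sums above 0 in all 12 libraries. Together the 14 summed to 292 to 375 SRPBM in PZH and 254 to 453 in Control. Of 7 stellate cell markers only Reln hosted any, at 4.12 to 11.7 SRPBM in PZH and 0 to 3.32 in Control. Lrat, Des, Pdgfrb, Col1a1, Col3a1 and Dcn were at 0 in every library. Macrophage markers (3 of 5 with circRNAs, Cd5l and Clec4f at 0) summed to 40.6 to 65.7 SRPBM in PZH and 34.0 to 54.1 in Control. Endothelial markers (4 of 5, Kdr at 0) summed to 0.686 to 10.1 and 1.99 to 7.70 SRPBM, and the 5 cholangiocyte markers were at 0. A marker at 0 may be a gene that gives no circRNA, so these values do not tell which cells were present. The part of the cell make-up in the Gramd1c difference was not tested.

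Of 5 other genes with a GRAM domain, 3 hosted a circRNA, all low. Gramd4 had 1 junction, above 0 in 5 libraries at up to 4.48 SRPBM, Gramd1a 1, in 2 libraries at up to 1.72, and Gramd3 1, in 1 library at 2.12. None was above 0 in enough libraries to be tested, and no row was assigned to Gramd1b or Gramd2. For other genes that move or sense sterols, 27 circRNAs of 11 host genes were tested, with 0 called in limma. At an unadjusted p under 0.05, 0 of the 27 were higher and 2 lower with PZH, against 4.55% higher and 3.00% lower over all circRNAs tested. Their median log2 difference was -0.08, and 13 of 27 were above 0. The highest by level came from Scp2, a sterol carrier protein (45.7 ± 9.02 SRPBM in PZH, 61.1 ± 11.1 in Control), Abca1, which exports cholesterol (27.5 ± 4.60 and 24.6 ± 5.91), and Osbpl9, an oxysterol-binding protein homologue (18.0 ± 2.96 and 21.9 ± 3.58; SD, n = 6 each). That Scp2 circRNA had the smallest p on the lower side (limma adjusted p = 0.566). A second Scp2 junction had the smallest on the higher side, above 0 in 6 PZH and 4 Control libraries (adjusted p = 0.672).

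Other genes for lipid transfer at contacts of the endoplasmic reticulum gave 17 tested circRNAs of 6 host genes, 0 called in limma, with 0 of 17 higher and 1 lower at an unadjusted p under 0.05 (over all circRNAs tested, 4.55% and 3.00%). Their median log2 difference was 0.35, and 11 of 17 were above 0. The most abundant came from Vapa, an anchor for lipid transfer proteins in that membrane (37.2 ± 11.2 SRPBM in PZH and 41.1 ± 7.34 in Control), Esyt2, a membrane tether (31.7 ± 10.7 and 23.6 ± 4.11), and Vps13c (18.2 ± 3.06 and 17.0 ± 4.58). On the higher side the smallest p was that of a Vps13d circRNA (10.2 ± 3.49 and 6.18 ± 2.43, limma adjusted p = 0.654). On the lower side it was that of Vps13b, at 0 to 9.56 SRPBM in PZH and 7.33 to 15.6 in Control (adjusted p = 0.408).

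Autophagy genes gave 7 tested circRNAs, 0 called in limma, 1 of 7 higher and 0 lower at an unadjusted p under 0.05 (over all circRNAs tested, 4.55% and 3.00%). Of these, 3 of 7 had a log2 difference above 0, with a median of -0.30. Those named by level were 1 each of Becn1 (above 0 in 4 PZH and 6 Control libraries, limma adjusted p = 0.686), the kinase gene Ulk2 (6 and 2, adjusted p = 0.566) and Atg16l1 (4 and 2, adjusted p = 0.816). Within 1 Mb of Gramd1c on chromosome 16, 6 other genes hosted 14 circRNAs, of which 5 were tested and 0 called in limma, with 0 of 5 higher or lower at an unadjusted p under 0.05 and 2 of 5 log2 differences above 0 (median -0.03). The next strongest host there, Usf3, summed to 28.2 SRPBM in the PZH group and 26.6 in the Control group, a log2 difference of 0.05 (adjusted p = 0.956). Zbtb20, a transcription factor gene of liver, summed to 8.81 and 11.04 SRPBM, a log2 difference of -0.11 (adjusted p = 0.950). The single circRNAs tested there, all of Usf3 or Zbtb20, had adjusted p of 0.710 to 0.982 in limma.

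The host genes whose sums were most like that of Gramd1c over the 12 libraries were Bckdhb (Pearson r = 0.85), Mpp6 (0.83), Pms1 (0.82), Vps45 (0.81) and Acaca (0.78), on log2 values of 398 other host genes with a median r of 0.15. The libraries share their scaling and group, and with group means removed these r were 0.64, 0.64, 0.62, 0.56 and 0.70. For the exons 3 to 6 circRNA, the most alike of 1087 circRNAs of other genes above 0 in all libraries were a pair of Bckdhb (r = 0.89 and 0.86) and 1 each of Stau2 (0.87), Pms1 (0.84) and Txndc11 (0.84). Bckdhb encodes part of the enzyme complex that breaks down branched-chain amino acids. These r are descriptions over 12 libraries.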

How the data were processed

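Liver RNA of 12 mice was measured as back-spliced junctions. The authors deposited a signal per junction, in SRPBM, with 1 column per library, and depth is known only through the table. Per the submitters' processing notes, Trim Galore and STAR were used with GRCm38 (mm10). Neither versions nor the circRNA caller, its filters or the way SRPBM was computed were found in the sources used here. Trizol extraction and a TruSeq kit were used, per the labels' protocols. Junction reads without molecular identifiers are not independent molecules, so counting errors cover counting alone, and the labels name livers of separate mice.

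Host genes were assigned from GENCODE M21: 15737 of 16445 junctions had both ends on exon boundaries of a gene, and 135 had more than 1 possible host. The main test was limma 3.58.1 (R 4.3.3), with an intensity-dependent prior variance, on log2(SRPBM + 0.636), the pseudocount being the median of the libraries' smallest values. A row entered the 2-sided test if it was above 0 in 6 or more of the 12 libraries, and p-values were adjusted over all such rows by Benjamini-Hochberg. The scale understates changes of low junctions. Single values were compared with exact permutation tests, and correlations with 100000 permutations (scipy 1.17.1). Python 3.11.15, numpy 2.4.6, pandas 2.3.3 and matplotlib 3.10.9 were used. The limma step was tested on simulated data.

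The gene, lists and tests were chosen with earlier results of these data known. Gramd1c junctions above 0 in at least 6 libraries or sharing an end with the most abundant one were named by rule, and the rest were named after their values were seen. For each list the 3 circRNAs with the highest mean and the 1 with the smallest p in each direction were named, and for likeness the 5 highest Pearson r, among host sums with a mean of at least 20 SRPBM. Alternatives were other pseudocounts, filters, scalings, variance models, library weights, a replicate block, zeros as missing, omission of each library in turn and, as another test, the exact rank-sum test.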

Additional observations from a re-analysis of the deposited data

Results flagged for a closer look

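Among 26 groups of 6 values, the farthest library's gap to its nearest neighbour was divided by the group's range. This exceeded Dixon's 95% critical value in 6 groups. Chance sets apart about 1 in 20 of independent groups of normal values. Shares of the same sum are not independent, so the count of 6 is not read against that rate. The exons 3 to 6 circRNA was at 114 SRPBM in Control 5 and 162 to 182 in the other Control libraries. Its share of the Gramd1c sum was 90.2% in Control 2 against 78.5% to 82.4%, and that of exons 3 to 10 was 7.09% there against 14.8% to 18.1%. The exons 4 to 6 circRNA held 3.38% of the sum in PZH 5 against 0.779% to 1.39% in the other PZH libraries. That of exons 4 to 9 held 1.54% in Control 1 against 0 to 0.566%. The 8 low junctions summed to 3.64 SRPBM in PZH 1 and 8.77 to 10.8 in the other PZH libraries. The reasons were not tested.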

How the results depend on the processing

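The log2 difference of the exons 3 to 6 circRNA was above 0 in all 14 alternatives (0.24 to 0.43) and without each library in turn (0.32 to 0.46), and that of the Gramd1c sum in all 15 (0.28 to 0.46) and without each library (0.37 to 0.49). Neither passed the adjusted threshold except with no filter on low values, which enters every row above 0 in at least 1 library into the variance trend. There the values stayed at 0.42 (limma adjusted p = 3.56e-13) and 0.45 (adjusted p = 0.0268), and 1 Gramd1c circRNA was called. In the other alternatives and without any 1 library, 0 were called. The exact rank-sum test could call none with as few rows at its smallest possible p as here. The exons 3 to 10 circRNA kept its direction and did not pass in any setting (0.40 to 0.71). The difference of exons 3 to 9 turned to -0.12 with zeros as missing and to -0.0236 without Control replicate 1 or 2 (without each library in turn, -0.0236 to 0.68), and that of exons 4 to 9 to -0.50 with zeros as missing. The cause was not tested. The share held by exons 3 to 6 differed by -2.65 to -0.30 percentage points without each library in turn, never passing. The number of junctions differed by 0.83 to 1.43 without each library in turn (exact permutation p of 0.0433 to 0.199), and by 0.19 per 1000 circRNAs above 0 in the library (exact permutation p = 0.0390). It varied only with the low junctions, so no difference is read from these p-values.

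Same-numbered libraries of the 2 groups did not deviate together (r of -0.12 to 0.03 across 1089 circRNAs), and 0 of 6 PZH libraries correlated best with their own number. With the replicate block the log2 differences were 0.42 for exons 3 to 6 (limma adjusted p = 0.603) and 0.45 for the sum (adjusted p = 0.496), and no Gramd1c call changed. In the blocked exact permutation tests, the share of exons 3 to 6 differed by -1.92 percentage points (p = 0.5) and the number of junctions by 1.17 (p = 0.125). The 8 low junctions, each with a mean under 10 read-pair equivalents, allow no statement on differences.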
